A study of Mus musculus with 5 samples.

Results

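The effect of diet on the chromatin response to pressure overload was read as a difference of differences between 4 libraries of histone H3 lysine 23 propionylation (H3K23Pr) from mouse heart. These were the 4 immunoprecipitated libraries of 5 in the series, which also holds 1 pooled input that is not analysed here. The hearts came from male C57Bl/6J mice aged 12 weeks. A group received either a BCAA-control diet, which holds all essential amino acids, or a BCAA-free diet without leucine, isoleucine and valine (the branched-chain amino acids, BCAA). Each diet began 4 days before surgery, which was either sham or transverse aortic constriction (TAC), where the aorta is narrowed so that the left ventricle pumps against a higher pressure, and went on for the 2 weeks after surgery. The groups were control diet sham, control diet TAC, BCAA-free sham and BCAA-free TAC, each 1 library from a pool of 3 hearts. They were assigned from the sample titles. The treatment field of 3 libraries names another diet or operation than the title.

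For each region of the deposited table the TAC response on a diet was the log2 ratio of TAC to sham signal, with 1 added to both signals. Subtracting the control diet response from the BCAA-free response gave the diet difference, which is positive where the TAC ratio was higher without BCAA. Unless stated otherwise it is centred on its median over all regions. A region or gene is called higher or lower when its centred diet difference is at least 1.5-fold in that direction. With 1 library per group there is no replicate check, no p-value and no SD. Unless named otherwise, the intervals given are 95% counting intervals and cover counting error only. A difference outside them lies between these libraries, and differences between the pools of hearts, the immunoprecipitations, the library preparations and the scaling cannot be told apart.

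Propionylation is a short-chain acyl mark on histone lysines, written from propionyl-CoA and found with acetylation at active promoters and enhancers. Propionyl-CoA is formed in mitochondria when valine and isoleucine are broken down, and also from methionine, threonine and odd-chain fatty acids. Cardiac muscle oxidises BCAA, and pressure overload is known to lower the level of the catabolic enzymes and to bring back fetal genes, fibrosis and inflammation.

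The table held 30965 regions with a median length of 5599 bp and a median signal of 9.36 over the 4 libraries. Approximate tags summed over regions, in units of 1e6, were between 16.9 and 17.1 in 3 libraries and 18.9 in the control diet TAC library. The median response was 0.16 on the control diet and -0.03 on the BCAA-free diet. The median over regions of the diet difference itself, before centring, was -0.20 (95% order-statistic interval -0.21 to -0.19), and scaling the libraries to their summed tags left -0.07. The order-statistic interval treats regions as independent and covers only the spread over regions of these 4 libraries, not that between hearts. How the authors scaled the libraries is not given in the sources used here, so the level of that median cannot be told apart from a scaling difference, and diet differences are given relative to it. Ratios of ratios, which are plain quotients of the TAC to sham ratios with no constant added, are not centred. At the median diet difference such a quotient is 0.871. The 18161 genes with a region, each represented by its region of highest mean signal, had a median of -0.10 on the centred scale.

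After centring, 3911 of 30965 regions (12.6%) were higher and 1880 (6.07%) were lower. At the level of genes, 637 (3.51%) were higher and 837 (4.61%) were lower. The balance between directions depended on the centre. Higher calls were 67.5% of the called regions as centred, 31.5% without centring (2105 regions or 6.8% higher, 4572 or 14.8% lower), 57.9% with the trend on mean signal removed and 55.4% when centred within region class. For genes these shares were 43.2%, 9.45%, 50.3% and 54.1%. The statements below therefore concern which genes stood above or below the rest, and not whether H3K23Pr as a whole was gained or lost.

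Most of the called genes had responses on opposite sides of the median, which is given as a description, since both responses enter the diet difference by which they were called. Of the 637 higher genes, 484 (76.0%) had a response above the median of all regions on the BCAA-free diet and below it on the control diet. A further 135 were above the median on both diets and 18 below it on both. Of the 837 lower genes, 716 (85.5%) were below the median on the BCAA-free diet and above it on the control diet. Many of these responses were small, since 246 of the higher genes (38.6%) and 478 of the lower genes (57.1%) were within 1.5-fold of the median on each diet. The library farthest from the others was BCAA-free TAC, as the highest, in 356 of the higher genes (55.9%), and BCAA-free sham, as the lowest, in 153 (24.0%). Among the lower genes it was BCAA-free TAC, as the lowest, in 333 (39.8%), control diet TAC, as the highest, in 292 (34.9%), and BCAA-free sham, as the highest, in 147 (17.6%).

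**Figure D1:**
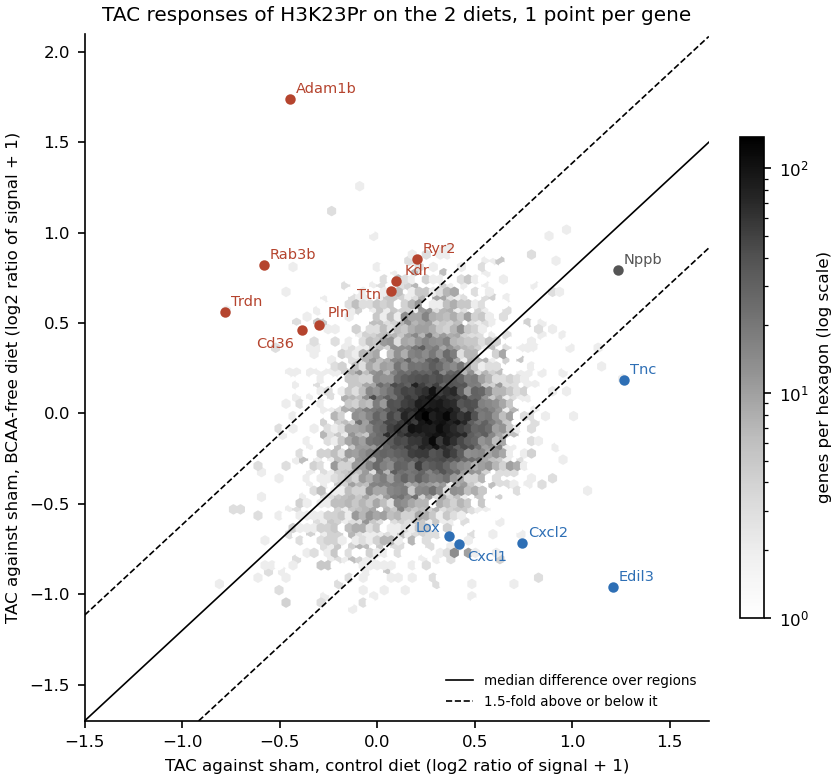
TAC response on the control diet (x axis) against that on the BCAA-free diet (y axis), each a log2 ratio of TAC to sham signal with 1 added, with genes binned in hexagons, the solid line at the median diet difference of -0.20 and dashed lines 1.5-fold from it. Trdn, Pln and Cd36 lie left of 0 on the x axis and above 0 on the y axis, Cxcl2, Lox and Edil3 lie at the lower right, and Nppb lies between the dashed lines with a ratio above 1 on both diets.

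Among genes of heart muscle, some of calcium handling and fat uptake had a TAC ratio below 1 on the control diet and above 1 on the BCAA-free diet. Trdn encodes triadin, which anchors calsequestrin beside the ryanodine receptor in the sarcoplasmic reticulum. Its signal was 9.24 in sham and 4.96 in TAC on the control diet and 9.65 and 14.7 on the BCAA-free diet. The control diet TAC library was the lowest and the BCAA-free TAC library the highest, while the sham libraries lay close together. The TAC to sham ratio was 0.537 on the control diet and 1.52 on the BCAA-free diet, a ratio of ratios of 2.84 (counting interval 2.299 to 3.498) and a diet difference of 1.54. This region lies inside the gene at chr10:33250600-33259999 (mm10). All 4 regions assigned to Trdn were above 0, and the region nearest to its start had a diet difference of 1.21. The form differed between regions. The TAC to sham ratio on the control diet was 0.918 nearest to the start, and 1.15 and 0.645 at the regions in between. Nearest to the start, the BCAA-free sham library was the lowest with 5.53, against 6.81 in control diet sham and 6.25 in control diet TAC.

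Pln, which encodes phospholamban, the inhibitor of the calcium pump that refills the sarcoplasmic reticulum, had a signal of 12.2 in sham and 9.71 in TAC on the control diet and 12.6 and 18.01 on the BCAA-free diet. Its ratio of ratios was 1.797 (1.64 to 1.97) and its diet difference 0.99. Cd36, the fatty acid translocase of muscle and endothelium, had a signal of 17.03 in sham and 12.8 in TAC on the control diet and 15.9 and 22.3 on the BCAA-free diet. Its ratio of ratios was 1.86 (1.73 to 2.01), with both of its regions above 0. For both genes the sham libraries were again similar and the TAC libraries stood on either side of them. Ryr2, the calcium release channel itself, differed in form: its signal was 7.86 in sham and 9.18 in TAC on the control diet and 8.64 and 16.4 on the BCAA-free diet, so only the BCAA-free TAC library stood apart, and all of its regions in the plot along genes were above 0.

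**Figure D2:**
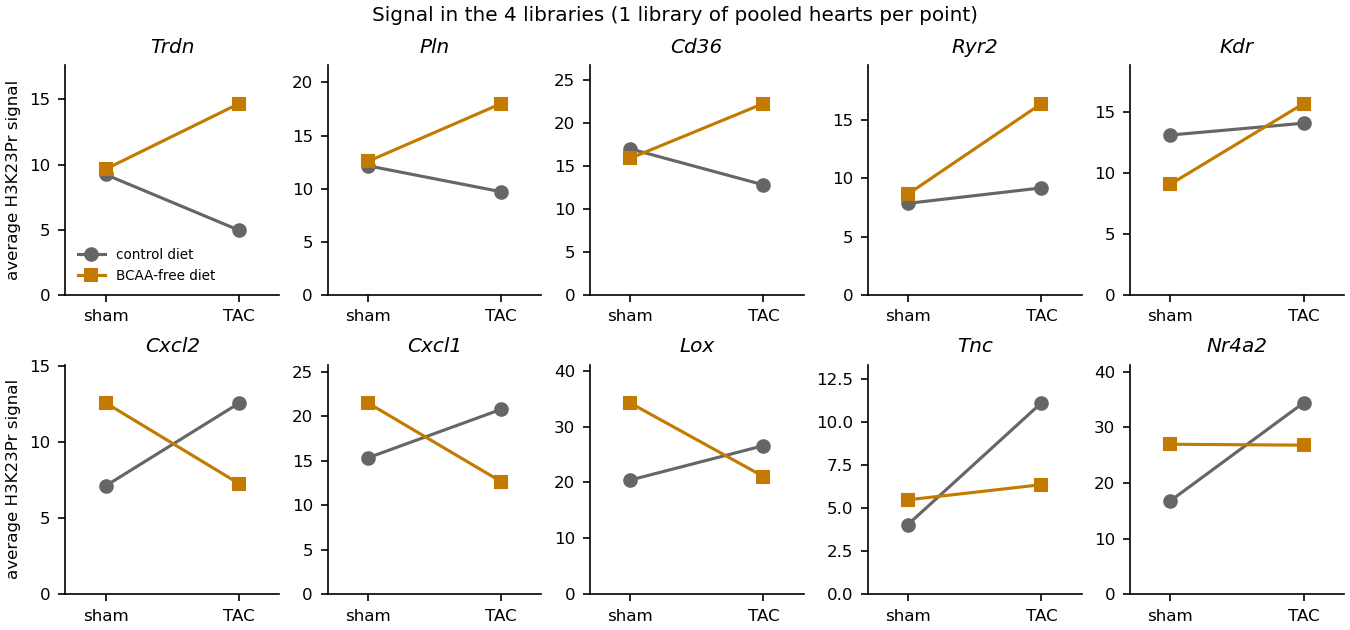
Average H3K23Pr signal (y axis, from 0) in the sham and TAC libraries of each diet for 10 genes, 1 library per point, joined within a diet. Trdn, Pln and Cd36 are close in sham and apart in TAC, Kdr starts lower in BCAA-free sham, and for Cxcl2, Cxcl1 and Lox the lines cross because BCAA-free sham is the highest or near the highest library and BCAA-free TAC is low.

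These genes stood within a wider group of heart muscle genes. Of 21 cardiomyocyte markers with a region, 18 were above 0 and 10 were higher, with 0 lower. Their median diet difference was 0.50, against -0.10 for all genes, of which 36.1% were above 0. Over all genes 3.51% were higher and 4.61% lower, which is the background for the counts of each list below. Their summed signal was 267 in sham and 306 in TAC on the control diet and 269.6 and 386 on the BCAA-free diet, and the lowest signal of any of them in any library was 4.96, so none was at 0. In whole hearts, more or fewer cells of a type and more or less mark per cell cannot be told apart. Of 23 ion channel genes, 6 were higher and 0 lower, with a median of 0.39. Of 18 intercalated disc genes, 5 were higher and 0 lower, with a median of 0.38. Of 28 sarcomere and Z-disc genes, 6 were higher and 0 lower, with a median of 0.28. These lists share members with each other. The lists and all others are shown in the plot of medians by gene list, and the 21 genes of calcium release and reuptake were less uniform, with a median of 0.02 and 4 higher, namely Trdn, Pln, Ryr2 and Casq2.

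Among junction genes, Pkp2 (plakophilin 2, a desmosome plaque protein) had a signal of 10.2 in sham and 9.76 in TAC on the control diet and 8.54 and 16.2 on the BCAA-free diet, with a ratio of ratios of 1.97 (1.74 to 2.24). Dsc2 (desmocollin 2, a desmosome adhesion protein) had a signal of 9.32 in sham and 8.73 in TAC on the control diet and 7.13 and 13.1 on the BCAA-free diet. In both, the control diet libraries were level and the BCAA-free sham library was below them, with BCAA-free TAC above. The same order was seen in Dsg2 (desmoglein 2), with 14.4 in sham and 16.01 in TAC on the control diet and 12.04 and 20.8 on the BCAA-free diet, and the diet difference of Xirp2, an actin-binding protein of the disc, was 0.83. Among channels, Kcnj3, an inward rectifier subunit of atrial muscle, had 8.11 in sham and 7.23 in TAC on the control diet and 5.23 and 9.26 on the BCAA-free diet, and Kcnj2, which sets the resting potential, had 12.6 in sham and 11.2 in TAC on the control diet and 10.3 and 14.6 on the BCAA-free diet. Both channels again had BCAA-free sham as the lowest library. Cacna1c, the pore of the L-type calcium channel, had 10.2 in sham and 11.9 in TAC on the control diet and 11.5 and 20.2 on the BCAA-free diet. Its diet difference was 0.75 by average signal but -0.09 by the highest point of the region. Kcnd3, a transient outward channel, had 0.92 at its strongest region and -0.15 at the region nearest to its start.

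In the sarcomere, Ttn (titin, the elastic spring of the sarcomere) had 10.1 in sham and 10.7 in TAC on the control diet and 9.72 and 16.2 on the BCAA-free diet. Csrp3 (muscle LIM protein) had 10.4 in sham and 9.83 in TAC on the control diet and 9.59 and 14.3 on the BCAA-free diet, and Myoz2 (calsarcin 1, a Z-disc protein) had 9.82 in sham and 11.3 in TAC on the control diet and 9.88 and 17.1 on the BCAA-free diet. In each of these the BCAA-free TAC library was the highest and the others differed little. Myom2, an M-band protein, had 15.6 in sham and 17.5 in TAC on the control diet and 10.1 and 17.4 on the BCAA-free diet, so here the BCAA-free sham library was low and the TAC libraries were alike. The 25 cardiac transcription factor genes had a median of 0.21 with 4 higher and 0 lower, but the median was -0.10 by peak signal. Myocd, a coactivator of serum response factor, had 8.301 in sham and 9.09 in TAC on the control diet and 10.1 and 17.8 on the BCAA-free diet, and Irx4, a ventricular homeobox factor, had 10.9 in sham and 11.9 in TAC on the control diet and 9.62 and 16.2 on the BCAA-free diet. Of 29 genes of hypertrophic signalling, 7 were higher and 1 lower, with a median of 0.19. Hdac9, a class IIa deacetylase that restrains growth genes in muscle, stood highest with 1.17, and Prkca, a protein kinase C that dampens contractility, was the lower one with -0.62. That value is from the strongest region of Prkca. Of its 14 regions, 7 were above 0 and 2 were lower, with a median of -0.009.

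**Figure D3:**
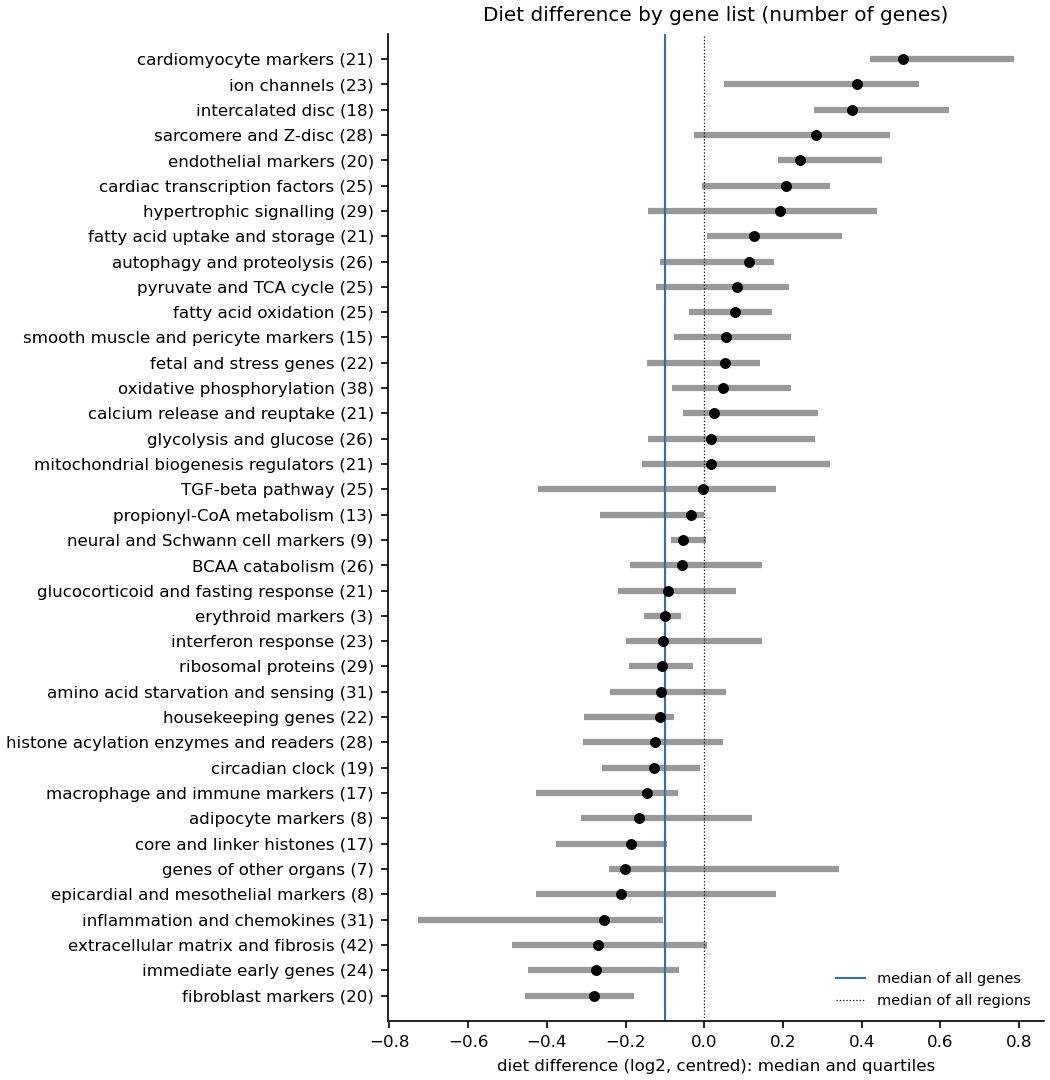
Median (point) and quartiles (bar) of the centred diet difference (x axis, log2) in 38 gene lists, with the number of genes in brackets and lines at the median of all genes (-0.10) and of all regions (0). Cardiomyocyte markers lie highest at 0.50 and fibroblast markers lowest at -0.28.

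Of the classical load-response genes, Nppb, Acta1, Nppa and the shared region of Myh6 and Myh7 had TAC ratios above 1 on both diets. The 22 fetal and stress genes had a median of 0.05, with 3 higher and 1 lower. Nppb, which encodes the B-type natriuretic peptide of loaded ventricle, had 3.51 in sham and 9.61 in TAC on the control diet and 3.75 and 7.24 on the BCAA-free diet, which is a TAC to sham ratio of 2.73 and 1.93. The signal was higher after TAC on both diets, and the ratio of ratios was 0.705 with a counting interval of 0.461 to 1.08, which includes both 1 and the median of 0.871. Acta1 (skeletal actin) had ratios of 1.98 and 1.49, and Nppa (atrial natriuretic peptide) had 1.67 and 2.19, with counting intervals of the ratio of ratios of 0.5096 to 1.12 and 0.799 to 2.16. The region shared by Myh6 and Myh7, the adult and fetal myosin heavy chains, had ratios of 1.304 and 1.53 and a diet difference of 0.42, and cannot be assigned to one of them. Atp2a2, the calcium pump that phospholamban inhibits, had 1.12 and 1.19 with a diet difference of 0.29. Ankrd1, a stretch-responsive ankyrin repeat protein, had 0.09 at its strongest region, which lies upstream, and 0.82 nearest to its start. Actc1, cardiac actin, was among the higher genes with 10.9 in sham and 12.7 in TAC on the control diet and 13.98 and 23.4 on the BCAA-free diet.

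Endothelial genes were also above the rest, and their low library was BCAA-free sham. Of 20 endothelial markers, 19 were above 0, 2 were higher and 0 lower, with a median of 0.24 that was 0.06 by peak signal and 0.04 without centring. Their summed signal was 406 in sham and 488 in TAC on the control diet and 325 and 415 on the BCAA-free diet, lowest in BCAA-free sham. Kdr, the main receptor of vascular endothelial growth factor, had 13.1 in sham and 14.1 in TAC on the control diet and 9.08 and 15.7 on the BCAA-free diet. The control diet libraries were close together and the BCAA-free sham library was the low one, and by peak signal the diet difference of Kdr was -0.05. Fabp4, the fatty acid binding protein of capillary endothelium and fat, had 28.8 in sham and 28.00 in TAC on the control diet and 22.2 and 29.3 on the BCAA-free diet, also lowest in BCAA-free sham. The 15 smooth muscle and pericyte markers had a median of 0.06 with 0 higher and 1 lower. That 1 was Cnn1 (calponin 1, a contractile regulator), with 12.9 in sham and 22.3 in TAC on the control diet and 15.6 and 14.5 on the BCAA-free diet.

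Fibroblast and matrix genes lay on the other side. Of 20 fibroblast markers, 2 were above 0, and their median was -0.28, although 1 was higher and 0 were lower by the 1.5-fold threshold. Their summed signal was 253 in sham and 263 in TAC on the control diet and 316 and 223 on the BCAA-free diet, highest in BCAA-free sham and lowest in BCAA-free TAC, and the part of this shift in the matrix results below was not tested. Of 42 matrix and fibrosis genes, 6 (14.3%) were lower and 1 (2.38%) was higher, against 4.61% and 3.51% of all genes. Their median was -0.27. Lox encodes lysyl oxidase, which crosslinks collagen and elastin. Its signal was 20.4 in sham and 26.6 in TAC on the control diet and 34.3 and 21.1 on the BCAA-free diet, so TAC stood above sham on the control diet and below it on the BCAA-free diet. The BCAA-free sham library was the highest, and the ratio of ratios was 0.472 (0.393 to 0.567). Loxl1, a related oxidase of elastic fibres, had 22.05 in sham and 25.7 in TAC on the control diet and 29.99 and 18.3 on the BCAA-free diet, also highest in BCAA-free sham, but lowest in BCAA-free TAC.

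Tnc (tenascin C, a glycoprotein of injured tissue) had 4.03 in sham and 11.1 in TAC on the control diet and 5.47 and 6.35 on the BCAA-free diet, and here it was the control diet TAC library that stood alone. Among fibroblast identity genes, Tcf21 (a transcription factor of cardiac fibroblasts) had 15.7 in sham and 14.1 in TAC on the control diet and 21.2 and 10.7 on the BCAA-free diet, and Pdgfra (the receptor that marks them) had 18.5 in sham and 20.2 in TAC on the control diet and 23.3 and 14.5 on the BCAA-free diet. Both were highest in BCAA-free sham and lowest in BCAA-free TAC. An exception was Ogn (osteoglycin, a small proteoglycan), with 7.14 in sham and 3.81 in TAC on the control diet and 7.15 and 6.43 on the BCAA-free diet. Its low library was control diet TAC, which gave a diet difference of 0.83. The 25 genes of the TGF-beta pathway had a median of -0.0040, with 1 higher and 2 lower. Among them Inhba, the activin A subunit, had 14.5 in sham and 14.9 in TAC on the control diet and 20.9 and 10.5 on the BCAA-free diet, and Ltbp1, which tethers latent TGF-beta to matrix, had 16.2 in sham and 19.8 in TAC on the control diet and 21.8 and 13.7 on the BCAA-free diet. Inhba and Ltbp1 again had BCAA-free sham as the highest library, while the mean over all regions of Ltbp1 gave a diet difference of 0.06.

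The lowest group by counts was inflammation. Of 31 inflammation and chemokine genes, 9 (29.0%) were lower and 0 higher, and 4 (12.9%) were above 0, with a median of -0.26. Over all genes 4.61% were lower, 3.51% higher and 36.1% above 0. The 31 genes rested on 29 regions, so a shared region can count more than once. Cxcl2, a chemokine that recruits neutrophils, had 7.11 in sham and 12.6 in TAC on the control diet and 12.6 and 7.26 on the BCAA-free diet. The high libraries were control diet TAC and BCAA-free sham and the low ones the other pair, with a ratio of ratios of 0.327 (0.232 to 0.461). That region lies upstream of Cxcl2, and the region at its start had a diet difference of -0.80. Cxcl1, its neighbour and close relative, had 15.3 in sham and 20.8 in TAC on the control diet and 21.5 and 12.6 on the BCAA-free diet. Cxcl5 shares its region with Pf4 and Ppbp, also chemokine genes of the same cluster, and that region had TAC to sham ratios of 1.62 and 0.539 on the control and the BCAA-free diet. It lies downstream of Cxcl5, and the region at the start of Cxcl5 had ratios of 0.951 and 0.592 and a diet difference of -0.40. The Cxcl1 region and the downstream region of Cxcl5 followed the order of Cxcl2, with BCAA-free TAC below BCAA-free sham and control diet TAC above control diet sham. Ccl4, a chemokine of activated macrophages, had 3.500 in sham and 6.48 in TAC on the control diet and 6.11 and 4.28 on the BCAA-free diet.

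Over 17 markers of macrophages and other immune cells the median was -0.15, with 3 lower, which were C1qa, C1qb and C1qc in 1 shared region, and 1 higher, Ptprc. The complement C1q region had 27.8 in sham and 34.9 in TAC on the control diet and 28.2 and 19.3 on the BCAA-free diet, and Ptprc (CD45, the common leukocyte antigen) had 8.96 in sham and 7.18 in TAC on the control diet and 5.18 and 5.98 on the BCAA-free diet. The summed signal of the immune markers was 263 in sham and 315 in TAC on the control diet and 255 and 213 on the BCAA-free diet, lowest in BCAA-free TAC. The 17 markers rested on 15 regions, and this sum over genes counts the C1q region 3 times. The part of the immune markers in the chemokine results was not tested. The 23 interferon response genes had a median of -0.10 with 1 lower, Oas1a, an antiviral RNA sensor, at 4.19 in sham and 9.89 in TAC on the control diet and 6.08 and 4.297 on the BCAA-free diet. The median over 24 immediate early genes was -0.27, with 2 lower and 0 higher. With the trend on mean signal removed this median was -0.08. Of the 24 genes, 22 were represented by regions with a promoter and a CpG island. Nr4a2, an orphan nuclear receptor induced by calcium and cAMP signals, had 16.7 in sham and 34.4 in TAC on the control diet and 26.9 and 26.8 on the BCAA-free diet, and Egr3, a zinc finger factor of the same early wave, had 18.3 in sham and 29.2 in TAC on the control diet and 22.7 and 18.6 on the BCAA-free diet. For both, TAC was above sham on the control diet, and for Nr4a2 the BCAA-free libraries were level.

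Promoter sequences of genes with opposite diet differences are shown so that motifs known from cardiac and inflammatory genes can be read beside their values. The 250 bases before the start of 4 higher heart muscle genes and 2 lower chemokine genes are printed 5′ to 3′ on the gene's strand from RefSeq (GRCm38.p6), lying at chr10:53337436-53337685 (plus strand) for Pln, chr3:123034988-123035237 (minus strand) for Myoz2, chr2:76982548-76982797 (minus strand) for Ttn, chr2:67445752-67446001 (plus strand) for Xirp2, chr5:90890995-90891244 (plus strand) for Cxcl1 and chr5:90903649-90903898 (plus strand) for Cxcl2. Each window lies inside a region assigned to its gene. Capitals mark matches, on either strand, to the core promoter motif TATAAA, to AGATAA as a site of GATA factors, to TGANTCA as a site of AP-1, to a MEF2-like site that begins with CTA, goes on with any 4 bases and ends with TAG, and to an NF-kappaB site that begins with GGGA, goes on with any 1 base and ends with TTTCC. The MEF2-like site can overlap the core promoter motif. These windows were chosen after values and matches were seen. Windows of the higher genes Cd36, Csrp3, Casq2, Ryr2, Kdr and Irx4 were also searched and held no match to any of these motifs.
Pln: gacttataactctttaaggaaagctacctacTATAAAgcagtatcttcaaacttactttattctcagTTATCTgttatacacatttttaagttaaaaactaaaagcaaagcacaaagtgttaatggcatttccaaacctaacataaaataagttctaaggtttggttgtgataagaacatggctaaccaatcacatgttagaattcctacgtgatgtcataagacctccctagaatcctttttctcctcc
Myoz2: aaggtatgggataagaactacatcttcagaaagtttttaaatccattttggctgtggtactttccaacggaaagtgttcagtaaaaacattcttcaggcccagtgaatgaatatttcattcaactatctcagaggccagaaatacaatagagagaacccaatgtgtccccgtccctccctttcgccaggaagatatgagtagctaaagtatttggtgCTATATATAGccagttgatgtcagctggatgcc
Ttn: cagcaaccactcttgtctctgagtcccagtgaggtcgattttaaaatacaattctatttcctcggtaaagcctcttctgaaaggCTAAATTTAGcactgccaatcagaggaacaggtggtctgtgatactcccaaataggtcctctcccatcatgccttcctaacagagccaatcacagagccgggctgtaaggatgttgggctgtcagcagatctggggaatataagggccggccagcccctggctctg
Xirp2: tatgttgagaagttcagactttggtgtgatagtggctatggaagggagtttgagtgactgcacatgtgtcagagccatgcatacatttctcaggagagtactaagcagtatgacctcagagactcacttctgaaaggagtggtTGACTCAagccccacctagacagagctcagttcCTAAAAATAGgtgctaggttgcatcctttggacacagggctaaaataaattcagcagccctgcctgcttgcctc
Cxcl1: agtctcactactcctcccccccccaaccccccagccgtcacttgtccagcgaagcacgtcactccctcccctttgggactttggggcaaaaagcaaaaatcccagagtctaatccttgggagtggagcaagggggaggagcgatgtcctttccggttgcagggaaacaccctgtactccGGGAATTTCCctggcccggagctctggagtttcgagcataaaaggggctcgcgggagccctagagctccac
Cxcl2: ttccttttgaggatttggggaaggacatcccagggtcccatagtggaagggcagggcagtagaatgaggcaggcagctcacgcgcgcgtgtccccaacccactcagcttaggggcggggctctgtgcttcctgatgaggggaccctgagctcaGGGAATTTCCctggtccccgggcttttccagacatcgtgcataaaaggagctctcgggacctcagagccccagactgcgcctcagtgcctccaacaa
Counted from the start, the TATAAA of Pln begins at -219 and its GATA match at -183. The MEF2-like match begins at -33 in Myoz2, at -166 in Ttn and at -74 in Xirp2, which also has an AP-1 match at -107. The NF-kappaB match begins at -71 in Cxcl1 and at -97 in Cxcl2. A match is a description of letters and not evidence of binding.

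Over all 32851 RefSeq promoter windows of this length, the MEF2-like site was found in 3.20%, AGATAA in 9.99%, the NF-kappaB site in 0.356%, TATAAA in 12.4%, TGANTCA in 6.75%, the M-CAT core GGAATG in 12.6% and the CArG box of serum response factor in 1.47%. Among the 9777 windows that lie inside a region representing their gene, the shares were 2.64%, 5.40%, 0.368%, 5.84%, 4.19%, 10.7% and 1.23%. Among the 159 such windows of higher genes, the MEF2-like site was found in 10 (6.29%), AGATAA in 22 (13.8%) and the NF-kappaB site in 0. Among the 378 windows of lower genes these counts were 6 (1.59%), 16 (4.23%) and 3 (0.794%). TATAAA stood in 10.7% and 8.20%, TGANTCA in 3.77% and 4.50%, GGAATG in 11.3% and 8.99%, and the CArG box in 3.77% and 1.85% of the windows of higher and lower genes. Some genes have several windows, and these shares were not tested.

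Energy metabolism genes lay between the groups above. The 21 genes of fatty acid uptake and storage had a median of 0.13 (2 higher, 0 lower), which was -0.07 without centring, and Cd36 and Fabp4 were the higher ones. The 25 genes of fatty acid oxidation had 0.08 with 0 called in either direction. All 25, like the 25 pyruvate and TCA cycle genes below, were represented by regions with a promoter and a CpG island. Of all such regions, 1.00% were higher and 4.62% lower. Hadha and Hadhb, the subunits of the mitochondrial trifunctional protein, share a region with 14.01 in sham and 15.3 in TAC on the control diet and 14.6 and 19.3 on the BCAA-free diet. The 38 genes of oxidative phosphorylation had a median of 0.05 with 1 higher and 0 lower, the 25 pyruvate and TCA cycle genes 0.08 with 0 called, and the 26 glycolysis and glucose genes 0.02 with 2 higher. The 21 regulators of mitochondrial biogenesis had a median of 0.02 with 3 higher and 0 lower. The highest was Ppargc1a, the coactivator PGC-1alpha that drives oxidative genes, with 9.26 in sham and 8.34 in TAC on the control diet and 8.23 and 13.3 on the BCAA-free diet. It showed the form of Trdn and Pln, with TAC below sham on the control diet and above it on the BCAA-free diet.

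The shares of called genes among those that break down BCAA and propionyl-CoA were near the background of 3.51% higher and 4.61% lower over all genes. The 26 BCAA catabolism genes had a median of -0.06, with 0 higher and 1 lower. The lower gene was Bcat1, the cytosolic aminotransferase, with 10.5 in sham and 14.6 in TAC on the control diet and 11.6 and 7.46 on the BCAA-free diet. Bcat2, the mitochondrial aminotransferase of muscle, had TAC to sham ratios of 1.16 and 1.06 and a diet difference of 0.08. The dehydrogenase subunit Bckdha had -0.01, and its phosphatase Ppm1k had 0.14. The partner subunit Bckdhb had -0.06 at its strongest region, which lies far inside the gene, and 0.87 nearest to its start. The 13 propionyl-CoA genes had a median of -0.03 with 0 higher and 1 lower, Mmab, which prepares the cobalamin cofactor of methylmalonyl-CoA mutase, at 10.5 in sham and 17.6 in TAC on the control diet and 14.8 and 13.5 on the BCAA-free diet. Pcca and Pccb, the subunits of propionyl-CoA carboxylase, had TAC to sham ratios of 1.27 and 1.15 on the control diet and 0.806 and 0.996 on the BCAA-free diet. The 28 writers, erasers and readers of histone acylation had a median of -0.12 with 0 called in either direction, and the most distant was Yeats4, a reader of acylated lysine, at -0.54.

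Genes that sense the lack of amino acids were also close to the rest. The 31 genes of this list had a median of -0.11, with 2 higher and 0 lower. The higher ones were Chac1, a glutathione-degrading target of the factor ATF4, with 12.7 in sham and 12.7 in TAC on the control diet and 10.4 and 16.3 on the BCAA-free diet, and Lars, the leucyl-tRNA synthetase, with 6.62 in sham and 9.46 in TAC on the control diet and 7.54 and 14.4 on the BCAA-free diet. Asns, asparagine synthetase and a classic ATF4 target, had 10.5 in sham and 14.6 in TAC on the control diet and 10.98 and 8.51 on the BCAA-free diet and a diet difference of -0.57. For the remaining lists the median is followed in brackets by the numbers of higher and of lower genes. They were autophagy and proteolysis with 0.11 (1 and 0 of 26), with the muscle ubiquitin ligase Trim63 at 0.61, glucocorticoid and fasting response with -0.09 (1 and 0 of 21) and circadian clock with -0.13 (0 and 0 of 19). Ribosomal proteins had a median of -0.11 (0 and 1 of 29), core and linker histones -0.19 (0 and 0 of 17) and housekeeping genes -0.11 (0 and 0 of 22). Markers of neural cells had -0.06 (0 and 0 of 9), of adipocytes -0.17 (1 and 0 of 8), of erythroid cells -0.10 (0 and 0 of 3), of epicardium -0.21 (0 and 0 of 8) and of other organs -0.20 (1 and 0 of 7).

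The largest single diet differences were taken among genes with a mean signal at or above the median and the same sign by peak signal. Gene models with a provisional symbol, such as Gm or Rik, were left out. The differences so ranked were mostly at genes outside these programmes. The 10 highest ran from 2.39 for Adam1b down to 1.08 for Dsc2, with Rab3b, Trdn, Ccdc147, Prtg, Mapk10, Gpr141, Pkp2 and Hnmt between them. Adam1b, a sperm-surface metalloprotease gene, had 12.7 in sham and 9.05 in TAC on the control diet and 3.92 and 15.4 on the BCAA-free diet, and its BCAA-free sham library was the low one. Rab3b, a small GTPase of vesicle release, had 12.01 in sham and 7.69 in TAC on the control diet and 8.69 and 16.1 on the BCAA-free diet in a region inside the gene, and its region nearest to the start had 0.04. Mapk10, the stress kinase JNK3, had 9.65 in sham and 8.84 in TAC on the control diet and 6.69 and 12.8 on the BCAA-free diet. The regions of Prtg and Gpr141 also lie far from the gene's start. At the start of Prtg the diet difference was -0.92. Gpr141 had no region at its start, and its nearest one, 60258 bp away, had -0.01.

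The 10 lowest ran from -1.97 for Edil3 to -1.18 for Alk, with Asgr2, Car13, Habp2, Nxf2, Cxcl2, Cxcl5, Kcnn3 and Tmem28 between them. Edil3, a secreted integrin ligand of vessel growth, had 7.22 in sham and 17.97 in TAC on the control diet and 12.3 and 5.84 on the BCAA-free diet at a CpG-island region at its start. Car13, a cytosolic carbonic anhydrase, had 9.36 in sham and 13.8 in TAC on the control diet and 12.9 and 5.18 on the BCAA-free diet, and Habp2, a hyaluronan-binding serine protease, had 9.83 in sham and 29.5 in TAC on the control diet and 10.8 and 9.35 on the BCAA-free diet. Edil3 was high in control diet TAC and low in BCAA-free TAC, Car13 was low in BCAA-free TAC, and Habp2 was high in control diet TAC with the other libraries level. Kcnn3, a calcium-activated potassium channel of vessels and atria, had 9.98 in sham and 12.6 in TAC on the control diet and 16.2 and 7.01 on the BCAA-free diet, highest in BCAA-free sham. The regions were between 799 and 4799 bp long, except that of Kcnn3 at 8399 bp. Asgr2 and Kcnn3 were represented by regions far from their starts, and the regions nearest to the start had -0.47 and -0.33. The regions of Alk, Tmem28 and Habp2 also lie away from the start, at 734608, 32630 and 12861 bp. For Alk the nearest region was still 423308 bp away and had -1.17.

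The diet difference also varied with the kind of region. Regions that held no promoter and no CpG island had a median of 0.14, with 20.2% higher and 6.70% lower. Regions with a promoter only had 0.01, with 11.2% and 6.36%. Regions with a CpG island but no promoter had -0.11, with 3.45% and 8.85%, and those with both had -0.12, with 1.00% and 4.62%. Signal went along with class, and the share of higher regions was 24.7% in the lowest quintile of mean signal and 1.52% in the highest. Within the lowest quintile, 26.8% of those without either and 4.08% of CpG-island promoters were higher, and within the highest quintile the shares were 8.62% and 0.394%. Regions without either had the larger share in each quintile. Gene lists differed in class too. Regions with both represented 13373 of 18161 genes, but 8 of 21 cardiomyocyte markers and 9 of 31 inflammation genes. Centred within region class, the medians of these 2 lists were 0.63 and -0.23. The part of class in the counts of called genes per list was not tested. Of the higher regions, 97.6% had the same sign by peak signal, and 96.1% of the lower ones.

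**Figure D4:**
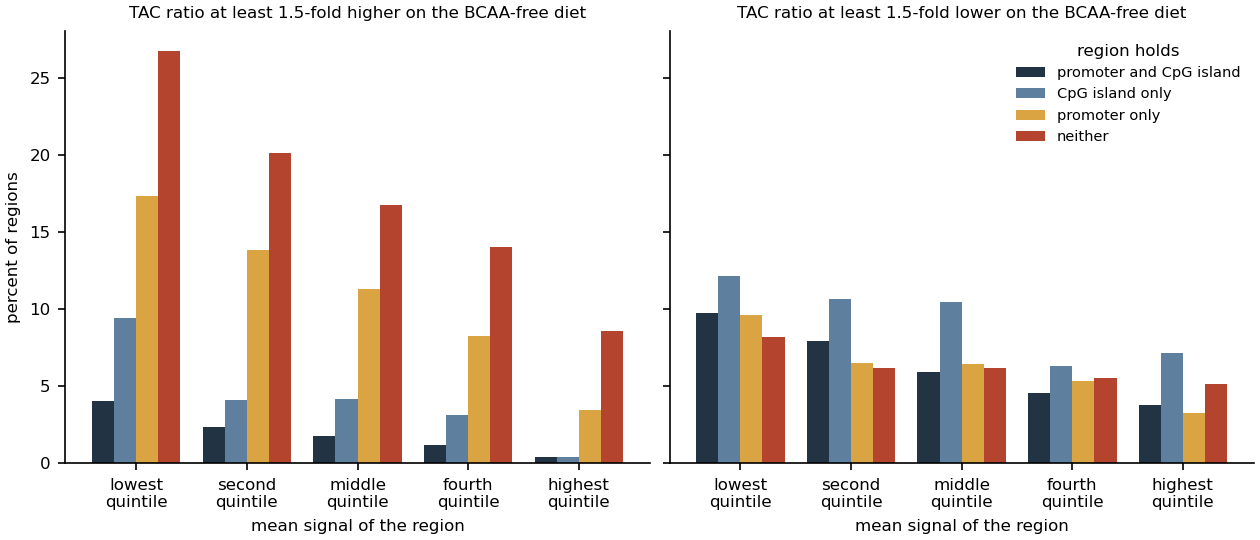
Percent of regions (y axis) with a TAC ratio at least 1.5-fold higher (left) or lower (right) on the BCAA-free diet, by quintile of mean signal (x axis) and by what the region holds (colours). Regions without promoter or CpG island have the highest share on the left in every quintile, from 26.8% in the lowest to 8.62% in the highest.

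Within single genes the same contrast appeared between start and body. Of 3504 genes with both a promoter region and an in-gene region without a promoter, the median diet difference was -0.04 at the promoter and 0.20 in the body, and the body was higher in 2500 (71.3%). Since values are centred on their median, as many of all regions lay above 0 as below. There were 267 genes with at least 8 regions, provisional symbols left out. Among them, however, the median share above 0 was 72.7% and the median diet difference 0.23. Of these 267 genes, 31 had every region above 0 and 1, Gpr133 (an adhesion receptor), had none. The genes named here were chosen after their values were seen. Cacna2d1, the auxiliary subunit that carries calcium channels to the membrane, had 8 of 10 regions above 0 and a median of 1.16, but its start region was at -0.03. Thrb, a thyroid hormone receptor, had 10 of 10 above 0 and a median of 1.03 with 0.08 at the start, and Tbl1x, a corepressor subunit, also had 10 of 10 and a median of 1.03. Cdh2 (N-cadherin of the intercalated disc) had 8 of 8 with a median of 1.07, and Cacna1c had 18 of 18 with a median of 0.70. Sorbs2, a Z-disc and disc adaptor, had a median of 0.99, Pcdh7 0.91, Dip2c 0.83 and Camk2d, the calcium and calmodulin dependent kinase of heart muscle, 0.81. At the other end Gpr133 had a median of -0.69.

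**Figure D5:**
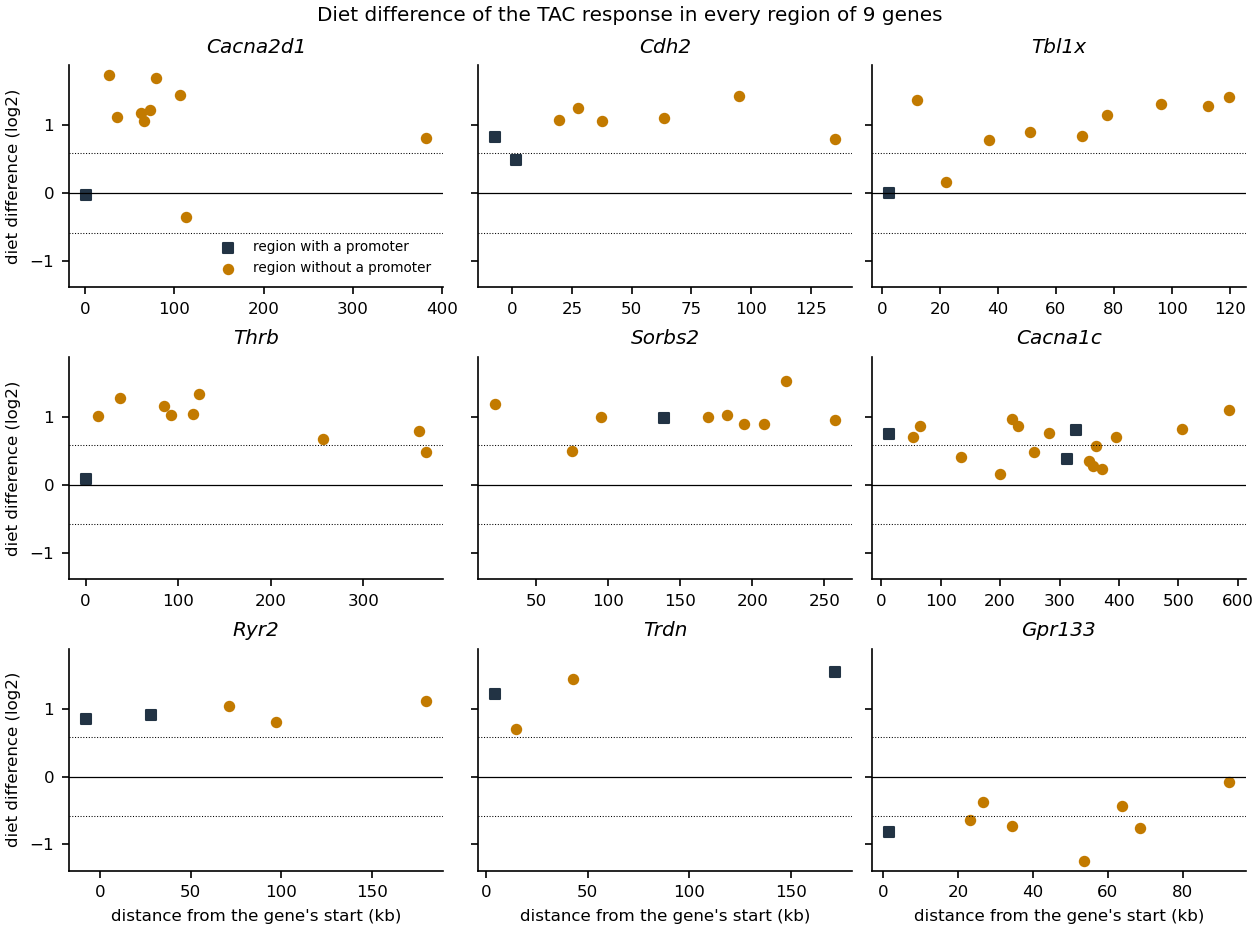
Centred diet difference (y axis, log2) of every region assigned to 9 genes against its distance from the gene's start (x axis, kb), with squares for regions that hold a promoter and circles for others, and dotted lines at 1.5-fold. In Cacna2d1, Tbl1x and Thrb the start region is near 0 and most others lie above the upper dotted line, while every region of Gpr133 is below 0.

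The regions that the authors' caller found in some libraries only followed the same axis. Regions called in control diet sham and BCAA-free TAC only numbered 309 and had a median diet difference of 1.01. The 591 regions called in control diet TAC and BCAA-free sham only had a median of -0.51. Regions called in BCAA-free TAC alone numbered 1370 with a median of 0.78, and 89.0%, 0% and 71.0% of these sets in turn were higher. The 18068 regions called in all 4 libraries had a median of -0.02, with 7.58% higher and 3.06% lower. The calls come from the same libraries as the signal and are therefore not independent of it.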

How the data were processed

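Active Motif did the chromatin immunoprecipitation, per the labels' protocols. BWA, MACS2 and the build mm10 appear, per the submitters' processing notes, with no version and no role. The authors deposited 1 table of merged regions that holds, per the file headers, average and peak signal (coverage) of each region and library, flags for the libraries in which it was called, and the genes, promoters and CpG islands assigned to it. How signal was scaled is not given in the sources used here. Their deposited log2 ratios were used as a check, and equalled recomputed ones to within 8.88e-16. The deposited maximum tag number of the control diet pair is the larger average signal times length over a constant. The same constant turned each signal into approximate tags (medians of 239 to 268 per region and library), from which normal-approximation 95% intervals on the log2 scale were made. They cover counting error only, and any scaling by the authors carries over to them.

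The response on each diet was a log2 ratio with a pseudocount of 1, and the diet difference was centred on its median over 30965 regions and called at 1.5-fold. The 18161 genes rested on 11926 regions, so neighbours can share a value. Python 3.11.15 with numpy 2.4.6, pandas 2.3.3, scipy 1.17.1 and matplotlib 3.10.9 was used, and the steps were tested on simulated data. The members and the 38 gene lists were chosen with earlier results of these data known. Of 879 list entries 829 had a region, 7 of them through another symbol in the RefSeq table (GRCm38.p6), and 769 genes were distinct. The named genes were Trdn, Pln, Cd36, Cxcl2 and Lox, the 10 highest and 10 lowest diet differences among regions of at least median mean signal with the same sign by peak signal, 2 to 4 members with the largest difference in each list, and a fixed set of stress and BCAA genes. For the 10 highest and 10 lowest, provisional symbols (Gm, Rik, LOC or accession-like) were left out and each region was used once. The same symbols were left out of the genes with at least 8 regions. Members are also named where the text accounts for every called gene of a list. Alternatives were pseudocounts of 0.1 and 5, peak signal, regions of higher signal or called in all 4 libraries, other centres and scalings, a 2-fold threshold, and other regions to represent a gene.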

Additional observations from a re-analysis of the deposited data

Results flagged for a closer look

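These results were set apart because the TAC to sham ratio was above 1 on 1 diet and below 1 on the other, with counting intervals that exclude 1 on both. They were taken from the 5 marker genes and the 10 highest and 10 lowest genes, which had been chosen for their diet difference, so the intervals support nothing further. The difference between diets was not tested, since each group had 1 library. On the side with a ratio below 1 on the control diet and above 1 on the BCAA-free diet were Adam1b, with a centred diet difference of 2.39, Rab3b with 1.60, Trdn with 1.54, Prtg with 1.19, Cd36 with 1.05 and Pln with 0.99. In the opposite direction were Edil3 with -1.97, Asgr2 with -1.56, Car13 with -1.49, Cxcl2 with -1.26, Cxcl5 with -1.24, Kcnn3 with -1.22, Tmem28 with -1.19, Alk with -1.18 and Lox with -0.84. At the region nearest to the start the diet difference was 0.045 for Rab3b, 1.21 for Trdn, -0.92 for Prtg, -0.47 for Asgr2, -0.80 for Cxcl2, -0.40 for Cxcl5 and -0.33 for Kcnn3.

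Among the 5 lists of the main results, the median response was above 0 on the control diet and below 0 on the BCAA-free diet in 2. This also holds for all genes, with medians of 0.26 and -0.04, and for 19 of the 38 lists, while 0 lists showed the opposite. The matrix and fibrosis genes had a median response of 0.22 on the control diet and -0.29 on the BCAA-free diet, and a centred diet difference of -0.27. The inflammation and chemokine genes had 0.22 and -0.33, and a diet difference of -0.26.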

How the results depend on the processing

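No paired analysis was possible because each group had 1 library, and no library could be left out for the same reason. Of 114 alternative values of the main results, 77 were counted as the same and 37 as moved. A median counted as moved when it left the order-statistic interval of its main value, which was taken as its spread. That interval covers the spread over regions or genes and not that between hearts. Numbers of called regions or genes have no such interval and counted as moved when they differed more than 1.5-fold from the main number. The median diet difference over regions was -0.22 with a pseudocount of 0.1, -0.15 with 5, -0.42 by peak signal, -0.28 at regions of at least median signal, -0.22 at regions called in all 4 libraries and -0.069 scaled to summed tags. Higher and lower regions numbered 1743 and 580 with a pseudocount of 5, 1194 and 475 at higher signal, 1470 and 497 where called in all 4 libraries, 2105 and 4572 without centring, and 969 and 263 at 2-fold, and 3302 were lower by peak signal. Higher and lower genes numbered 271 and 347 with a pseudocount of 5, 1095 and 1871 by peak signal, 423 and 388 where called in all 4 libraries, 281 and 2694 without centring, 117 and 99 at 2-fold, and 986 and 477 when centred on the median over genes, an alternative chosen after seeing the data. At higher signal 344 genes were lower. The median of cardiomyocyte markers was 0.41 with a pseudocount of 5 and 0.30 without centring, of fibroblast markers -0.48 and of matrix genes -0.47 without centring, and of endothelial markers 0.18 with a pseudocount of 5, 0.060 by peak signal and 0.042 without centring. Without centring all genes had a median of -0.30.

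Of 2204 values of single genes and other lists, 332 moved by more than their spread and 14 others were counted as reversed. The spread of a gene was its counting interval. A gene counted as reversed when its main diet difference was at least 1.5-fold and the alternative had the other sign. A list counted as reversed when its main interval held a single sign and the alternative moved to the other. Other changes of sign are among the same or moved values, and the cause was not tested. Among 170 named genes, 77 moved by peak signal, 65 without centring, 43 over all regions of the gene and 33 with a pseudocount of 5. The reversed values by peak signal were those of the cardiac transcription factors (-0.10), Cacna1c (-0.094), Fhl2 (-0.079) and Kdr (-0.047). With the trend on mean signal removed, the circadian (0.0072), ribosomal (0.062) and housekeeping lists (0.036) were reversed, and centred within region class the ribosomal and housekeeping lists again (0.014 and 0.0082). Also reversed were fatty acid uptake without centring (-0.072) and Ltbp1 over all its regions (0.056). At the region nearest to the start the reversed genes were Gpr141 (-0.0058), Kcnd3 (-0.15) and Prtg (-0.92). Relative to all genes, the cardiomyocyte markers stayed 0.49 to 0.78 above, the fibroblast markers 0.14 to 0.30 below, the endothelial markers 0.20 to 0.44 above and the inflammation genes 0.14 to 0.24 below under 12 alternatives. Short regions of low signal rest on few tags, and counting intervals say nothing of the spread between hearts.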
